A study of Mus musculus with 6 samples.

Results

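The 10 genes described here encode heterogeneous nuclear ribonucleoproteins (hnRNPs) outside the A/B and D subfamilies: *Hnrnpc*, *Hnrnpf*, *Hnrnph1*, *Hnrnph2*, *Hnrnpk*, *Hnrnpl*, *Hnrnpm*, *Hnrnpr*, *Hnrnpu* and *Hnrnpul2*. They were taken by gene symbol from a table of 46078 genes, in which all 10 were found and all 10 passed the filter on low counts. The values are of RNA, not of protein. KO and WT libraries came from C2C12, an immortalized myoblast line of the mouse that fuses into myotubes when serum is withdrawn. The knockout (KO) cells had *Hnrnpa2b1*, a member of the A/B subfamily, targeted with CRISPR-Cas9, and the other cells were labelled wild type (WT). All cells were sampled 2 days after serum was withdrawn and insulin, transferrin and selenium were added, and their total RNA was sequenced after removal of ribosomal RNA. There were 3 libraries of each genotype, KO1 to KO3 and WT1 to WT3, and their values are given in that order. The study isolated independent puromycin-selected clones of both genotypes, but the sources used here do not say which clone gave which library, so a difference between genotypes may hold differences between clones. The comparison asks which other hnRNP genes differ in level when *Hnrnpa2b1* is targeted.

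hnRNPs coat nascent transcripts in the nucleus and influence splicing, 3′ end processing, export and stability of the RNA. Each subfamily prefers its own sequences: hnRNP C binds runs of U, hnRNP K runs of C, hnRNP L repeats of CA, hnRNP F and H runs of G, and hnRNP M sequences rich in G and U. Many hnRNPs bind transcripts of their own and of each other's genes, and in muscle several of them take part in the switch of splicing that goes with differentiation.

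The libraries held 33605258 to 40558740 counted reads each, and a member had at least 1085 counts (*Hnrnpu*) and at most 24097 (*Hnrnpk*), so that the spread between libraries and not the depth set the precision of the members. Levels are given as CPM, the counts of a gene relative to the library total, scaled with the trimmed mean of M-values (TMM), and differences as log2 fold changes of KO over WT from edgeR's quasi-likelihood test, with Benjamini-Hochberg adjustment over 14828 genes and a threshold of 0.05. All 9 myogenic markers were above 1 CPM in every library. Of 20 markers of blood, endothelial, epithelial, adipocyte and neural cells none was above 1 CPM in every library, and the highest single value was 3.61 CPM (*Krt14*). At these low levels the summed CPM did not overlap between genotypes for the epithelial markers (0.802 to 5.85 in KO and 0.231 to 0.647 in WT), the endothelial markers (0.196 to 0.733 in KO and 1.19 to 2.05 in WT) and the neural markers (0.252 to 0.415 in KO and 0.549 to 0.755 in WT), and their part in the values of the members was not tested. The summed CPM of the myogenic markers was 19410 in KO1, 8389 in KO2, 7731 in KO3 and 12960 to 16600 in WT. Of 20 cell cycle genes, 3 (15%) were higher in KO at the threshold and 0 lower, beside 12.1% of all genes tested called higher. Of the 20, 5 did not overlap between genotypes, fewer than the 44.3% of all genes tested. The median log2 fold change of the 20 was 0.48, beside 0.03 over all genes tested, with 16 above 0 and 4 below. Their summed CPM was 806.5 to 1012 in KO and 544.6 to 649.1 in WT, but without *Rrm2*, left out after its values were seen, it was 855 in KO2, 791 in KO3 and 472 to 578 in WT, and KO1 lay between WT1 and WT2. The targeted gene, *Hnrnpa2b1*, had 159 to 249 CPM in KO and 225 to 252 CPM in WT. Its log2 fold change was -0.23 (adjusted p = 0.381 with edgeR), so its RNA level did not separate the genotypes. That value was -0.09 without KO1 and -0.41 without KO3. In TPM, a measure corrected for transcript length, it had 29.5, 38.0 and 59.9 in KO and 56.6, 57.4 and 58.0 in WT. The log2 difference in TPM was -0.49 (adjusted p = 0.174 with limma). KO1 and KO2 lay below every WT library in both measures, and KO3 did not. The paper checked the knockout in its clones at the level of protein, by immunofluorescence and Western blotting. RNA levels do not measure that loss. When library totals alone were used in place of TMM factors, the median log2 fold change of all genes moved from 0.03 to 0.15, and the share of called genes that were higher in KO moved from 53.4% to 66.2%.

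Of the 10 members, *Hnrnpm* was higher and *Hnrnpul2* lower in KO at the threshold. These 2 calls make up 20% of the members, against 22.7% of all genes tested (12.1% called higher and 10.6% called lower), so the members were called about as often as the background. The other 8 members were not called. Every KO library lay above every WT library for *Hnrnpm*, *Hnrnpu*, *Hnrnpr*, *Hnrnph1* and *Hnrnph2*, and below for *Hnrnpc* and *Hnrnpul2*. That is 7 of 10 members in CPM, beside 44.3% of all genes tested whose groups did not overlap. The exact two-sided permutation test of 3 libraries against 3 gave p = 0.1 for each of these 7 genes, the smallest p it allows, and cannot reach 0.05. In TPM, only *Hnrnpm* and *Hnrnph2* among the members did not overlap. The median log2 fold change of the members was 0.26, beside 0.03 over all genes tested, with 7 members above 0 and 3 below. The median size of the change without its sign was 0.37 in the members and 0.42 in all genes. The standard errors of the members lay between 0.11 and 0.23. In these bulk libraries, fewer cells of a type and less RNA per cell cannot be told apart, and the part of the myogenic and cell cycle differences in these values was not tested.

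**Figure D1:**
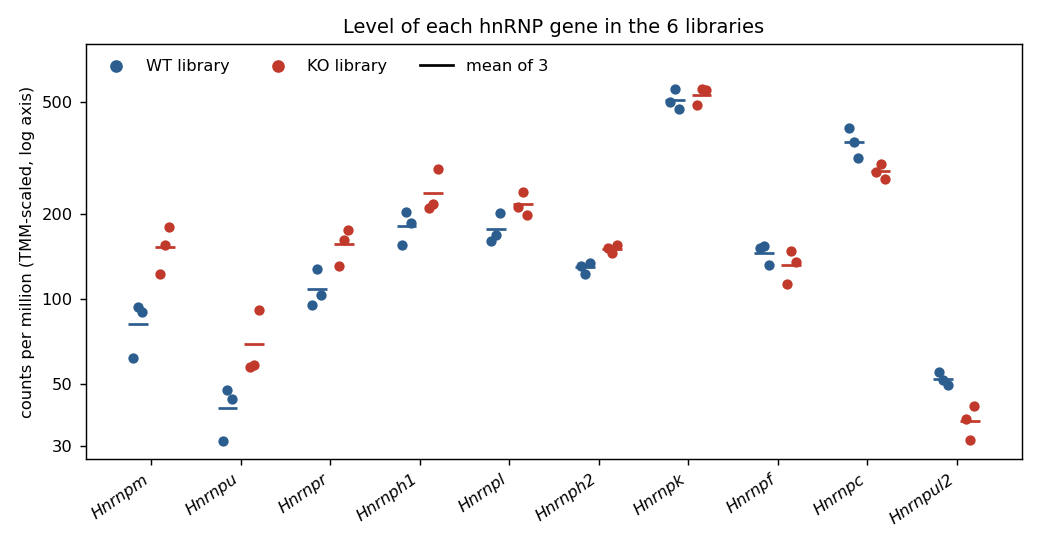
CPM (TMM-scaled, log axis) of each gene in the 3 WT (blue) and 3 KO (red) libraries, ordered by log2 fold change, with a line at the mean of each genotype. The KO libraries sit above the WT libraries for *Hnrnpm*, *Hnrnpu*, *Hnrnpr*, *Hnrnph1* and *Hnrnph2*, below them for *Hnrnpc* and *Hnrnpul2*, and among them for *Hnrnpl*, *Hnrnpk* and *Hnrnpf*.

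*Hnrnpm* (ENSMUSG00000059208, chr17:33646233-33686860, minus strand, GRCm38) encodes hnRNP M, a splicing regulator with RNA recognition motifs. It had 122, 155 and 179 CPM in KO1, KO2 and KO3, against 61.8, 93.6 and 89.6 CPM in WT1, WT2 and WT3. The lowest KO library lay above the highest WT library, and WT1 was the lowest of the 6. The means were 152 ± 28.8 CPM in KO and 81.6 ± 17.3 CPM in WT (SD, n = 3 each), a log2 fold change of 0.90 (standard error 0.21, 95% interval 0.42 to 1.37, adjusted p = 0.0206 with edgeR), or 1.86-fold. In TPM, a second deposited measure that corrects for transcript length, *Hnrnpm* had 29.96, 41.8 and 56.4 in KO and 16.3, 26.8 and 23.1 in WT. It was the only member past the threshold with limma on log2(TPM + 1), where 20.2% of the 11691 genes tested were called. The log2 difference in TPM was 0.90 (standard error 0.26, adjusted p = 0.0391). This call held in 4 of 10 alternatives and was lost with a pseudocount of 0.1 (adjusted p = 0.0551), without a filter on TPM (adjusted p = 0.178) and without KO2, KO3, WT1 or WT3 (adjusted p 0.0767 to 0.167 with limma). The call in counts was lost without KO3 (0.77, adjusted p = 0.0592), without WT1 (0.72, adjusted p = 0.0807) and without WT3 (0.94, adjusted p = 0.0653 with edgeR), while the log2 fold change stayed at 0.72 or more in each of these fits. Its nearest relative, *Myef2*, first described as a repressor of the myelin basic protein gene, had 58.6, 66.1 and 71.1 CPM in KO and 31.6, 58.7 and 44.1 CPM in WT. The highest WT library of *Myef2* lay just above the lowest KO library, and its log2 fold change of 0.54 (95% interval 0.04 to 1.04) did not pass the threshold (adjusted p = 0.106).

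*Hnrnpul2* (ENSMUSG00000071659, chr19:8820010-8834143, plus strand, GRCm38) encodes an hnRNP U-like protein that takes part in processing of broken DNA ends. It had 37.6, 31.5 and 41.7 CPM in the KO libraries, against 55.1, 51.4 and 49.5 CPM in the WT libraries. No KO library reached the lowest WT value, and the WT values were close together. The means were 36.9 ± 5.15 CPM in KO and 52.0 ± 2.85 CPM in WT (SD, n = 3 each), a log2 fold change of -0.50 (standard error 0.14, 95% interval -0.82 to -0.17, adjusted p = 0.039). In TPM, the values were 3.96, 3.48 and 5.49 in KO and 6.53, 6.24 and 5.42 in WT, so that KO3 lay between the WT libraries, and the log2 difference of -0.43 was not called (adjusted p = 0.117 with limma). The call in counts did not hold with library totals alone (-0.38, adjusted p = 0.0886 with edgeR). Nor did it hold when the median shift of the fixed 10 Mb bin holding each gene was removed (-0.37, adjusted p = 0.0966 with edgeR). That shift was -0.13 in the bin of *Hnrnpul2*. Relative to the median of all genes the value with library totals was -0.53, the same as under TMM. It was also lost without KO2, WT1, WT2 or WT3, where the log2 fold change was between -0.56 and -0.39 and the adjusted p between 0.0864 and 0.143. *Hnrnpul1*, which encodes another U-like protein, had a log2 fold change of -0.08 (95% interval -0.35 to 0.19, adjusted p = 0.645), and its sign turned to 0.03 with library totals.

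*Hnrnpu* (ENSMUSG00000039630, chr1:178321108-178337797, minus strand, GRCm38) encodes hnRNP U, or scaffold attachment factor A, which binds both RNA and chromatin. Its values stood the other way round from those of *Hnrnpul2*, at 57.1, 58.2 and 91.5 CPM in the KO libraries, against 31.4, 47.6 and 44.1 CPM in the WT libraries. KO3 was far above KO1 and KO2, WT1 was the lowest, and the groups did not overlap. The log2 fold change of 0.75 (standard error 0.23, 95% interval 0.21 to 1.29) missed the threshold (adjusted p = 0.053 with edgeR). It passed with DESeq2 under both filters (0.72 in each, adjusted p = 0.024 and 0.0241), with library totals, without a filter on low counts, with the regional shift removed and without KO1. In TPM *Hnrnpu* had 32.8, 36.8 and 49.1 in KO and 9.43, 35.1 and 30.6 in WT. WT1 stood alone in this measure. The ratio of TPM to CPM of *Hnrnpu* was 0.301 in WT1, 0.738 in WT2, 0.693 in WT3 and 0.536 to 0.632 in KO. For the other 9 members the highest ratio was at most 1.36 times the lowest, whereas for *Hnrnpu* it was 2.45 times. The log2 difference in TPM was 0.81 (95% interval -0.14 to 1.76, adjusted p = 0.2), and without WT1 it was 0.24 (adjusted p = 0.54 with limma). The size of the *Hnrnpu* difference in TPM therefore rested on WT1.

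**Figure D2:**
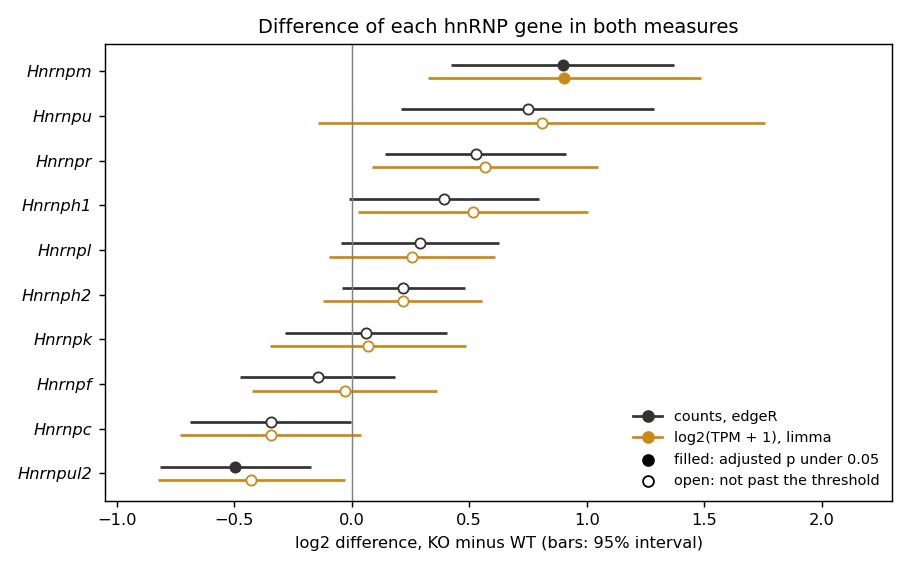
Log2 difference of KO over WT for each gene, in counts (edgeR, dark) and in log2(TPM + 1) (limma, ochre), with bars for the 95% interval. Filled points mark an adjusted p under 0.05, reached by *Hnrnpm* in both measures and by *Hnrnpul2* in counts alone, and the widest bar is that of *Hnrnpu* in TPM.

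*Hnrnpr* (ENSMUSG00000066037, chr4:136310942-136359447, plus strand, GRCm38) encodes hnRNP R, an RNA-binding protein studied in motor neurons for transport of mRNA into axons. It had 131, 162 and 176 CPM in the KO libraries, against 95.1, 127 and 103 CPM in the WT libraries. KO1 was only slightly above WT2, and the groups did not overlap. The log2 fold change was 0.53 (standard error 0.17, 95% interval 0.14 to 0.91), which did not pass the threshold (adjusted p = 0.0558). It passed in 5 of 14 alternatives: upper-quartile factors (0.56, adjusted p = 0.0478), library totals alone (0.65, adjusted p = 0.0406), no filter on low counts (0.50, adjusted p = 0.0412), DESeq2 on genes with at least 10 counts (0.50, adjusted p = 0.0491), and edgeR without KO1 (0.64, adjusted p = 0.0184). In TPM the groups overlapped, with 30.6, 40.4 and 50.5 in KO and 23.9, 32.4 and 24.0 in WT, and the log2 difference was 0.57 (adjusted p = 0.0902). *Syncrip*, which encodes the close relative hnRNP Q, had 173, 163 and 202 CPM in KO and 127, 158 and 127 CPM in WT. Its log2 fold change was 0.38 (95% interval 0.04 to 0.72, adjusted p = 0.0976). *Syncrip* passed only when the regional shift was removed (0.59, adjusted p = 0.0311 with edgeR).

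The 150 bases before the annotated start were taken for *Hnrnpr*, *Hnrnpu*, *Hnrnpc* and *Hnrnpm*, a choice of members made by hand. Those of *Hnrnpr* and *Hnrnpu* are shown because they held no exon, whereas those of *Hnrnpc* and *Hnrnpm* did. In CPM both genes shown had KO libraries above WT libraries. The sequences are the 150 bases upstream of the start in RefSeq (GRCm38.p6), read 5′ to 3′ on the strand of the gene. That of *Hnrnpr* lies at chr4:136310792-136310941 (plus strand) and that of *Hnrnpu* at chr1:178337816-178337965 (minus strand). Capitals mark ATTGG, the reverse of the CCAAT box, in *Hnrnpr* and GGGCGG, the GC box, in *Hnrnpu*.
Hnrnpr: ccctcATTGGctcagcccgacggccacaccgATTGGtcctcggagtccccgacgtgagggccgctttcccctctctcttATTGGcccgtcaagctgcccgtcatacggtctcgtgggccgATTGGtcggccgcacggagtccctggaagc
Hnrnpu: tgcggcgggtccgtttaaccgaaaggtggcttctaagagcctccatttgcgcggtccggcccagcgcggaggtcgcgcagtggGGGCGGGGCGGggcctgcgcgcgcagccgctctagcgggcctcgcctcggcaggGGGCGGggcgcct

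The *Hnrnpr* stretch held 4 matches to the CCAAT box, all in the reverse direction, starting 145, 119, 71 and 30 bases before the start. The *Hnrnpu* stretch held 3 matches to the GC box, at 67, 62 and 13 bases, the first pair sharing 1 base. Their GC content was 66.0% and 75.3%. Over the 250 bases before each start, on both strands, CCAAT was found in 33.8% and GGGCGG in 32.7% of all 32851 promoter windows of RefSeq. Of the 17 windows of 9 members, several of which share a gene, 10 had CCAAT and 12 had GGGCGG. The median GC content of these windows was 68.0% and that of all windows 52.4%. TATAAA was found in a window of 1 member, *Hnrnpm*, and in 12.4% of all windows, and CACGTG in a window of 1 member, *Hnrnpf*, and in 6.02% of all windows. CCGGAA, the core of ETS sites, was found for 2 members, *Hnrnpf* and *Hnrnpu*, and in 12% of all windows. These are matches of letters and not measured sites, and members with CCAAT or GGGCGG included genes with positive and with negative log2 fold changes.

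The F and H subfamily holds 3 members, whose proteins share RNA recognition motifs that bind runs of G and act on splicing and polyadenylation. *Hnrnph1* (ENSMUSG00000007850, chr11:50376990-50386528, plus strand, GRCm38) had 210, 217 and 287 CPM in the KO libraries, against 155, 203 and 185 CPM in the WT libraries. KO3 was well above the other libraries and the groups did not overlap, but KO1 and WT2 were close. The log2 fold change was 0.39 (95% interval -0.01 to 0.80, adjusted p = 0.137), and it passed in counts only when the regional shift of -0.23 was removed (0.62, adjusted p = 0.0432). *Hnrnph2* (ENSMUSG00000045427, chrX:134601179-134607060, plus strand, GRCm38), whose product is closely related to that of *Hnrnph1*, had 151, 146 and 154 CPM in KO and 131, 122 and 134 CPM in WT. Its 6 values lay close together, with no overlap between genotypes, and the log2 fold change was 0.22 (95% interval -0.04 to 0.48, adjusted p = 0.189). *Hnrnpf* (ENSMUSG00000042079, chr6:117900324-117925622, plus strand, GRCm38) had 113, 147 and 135 CPM in KO and 151, 153 and 132 CPM in WT. KO1 was the lowest and the groups overlapped. Its log2 fold change was -0.14 (95% interval -0.47 to 0.19, adjusted p = 0.489). In TPM the log2 differences were 0.51 for *Hnrnph1* (adjusted p = 0.122), 0.22 for *Hnrnph2* (adjusted p = 0.323) and -0.03 for *Hnrnpf* (adjusted p = 0.916 with limma). The groups of *Hnrnph1* overlapped in TPM, where KO1 with 70.05 lay below WT2 with 75.02. Other genes of the subfamily had CPM values below those of WT. *Hnrnph3*, which encodes a shorter relative, had a log2 fold change in counts of -0.41 (95% interval -0.80 to -0.02, adjusted p = 0.111 with edgeR). In TPM the groups of *Hnrnph3* overlapped (-0.28, adjusted p = 0.322 with limma). *Grsf1* encodes a G-rich sequence binding protein of mitochondrial RNA granules. In counts it was lower in KO, at -0.56 (adjusted p = 0.04 with edgeR), with 74.2, 76.8 and 64.2 CPM in KO and 125, 87.0 and 106 CPM in WT. The *Grsf1* call was lost with library totals alone (-0.45, adjusted p = 0.0744) and with the regional shift removed (-0.35, adjusted p = 0.154), and also without KO2, KO3, WT1 or WT3 (adjusted p 0.0616 to 0.158 with edgeR).

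*Hnrnpc* (ENSMUSG00000060373, chr14:52073377-52104028, minus strand, GRCm38) encodes hnRNP C, which packages nascent RNA and competes with splicing factors at U-rich tracts. It had 282, 300 and 267 CPM in the KO libraries, against 403, 360 and 315 CPM in the WT libraries. All KO libraries were below all WT libraries, and the gap between KO2 and WT3 was small. The means were 283 ± 16.7 CPM in KO and 359 ± 44.0 CPM in WT (SD, n = 3 each), a log2 fold change of -0.35 (standard error 0.15, 95% interval -0.69 to -0.00) that did not pass the threshold (adjusted p = 0.124 with edgeR). Over the alternatives to that fit the log2 fold change was -0.50 to -0.23 and the adjusted p 0.051 to 0.381. In TPM, KO3 with 73.2 lay just above WT3 with 71.5, and the log2 difference was -0.35 (adjusted p = 0.176 with limma). *Raly*, which encodes the closest relative of hnRNP C, had 164, 220 and 165 CPM in KO and 269, 253 and 235 CPM in WT. Its KO libraries were likewise all below its WT libraries, with a log2 fold change of -0.46 (95% interval -0.83 to -0.10, adjusted p = 0.0701).

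*Hnrnpk* (ENSMUSG00000021546, chr13:58391142-58403343, minus strand, GRCm38) encodes hnRNP K, which binds runs of C through KH domains. It had 484, 552 and 547 CPM in the KO libraries, against 497, 554 and 469 CPM in the WT libraries. The KO values lay within the range of the WT values. The log2 fold change was 0.06 (95% interval -0.29 to 0.41, adjusted p = 0.793), an interval that runs from 0.820-fold to 1.32-fold. Its sign turned when the regional shift was removed (-0.01) and without WT3 (-0.02). Its relatives *Pcbp1* and *Pcbp2*, poly(C)-binding proteins with KH domains, had log2 fold changes of 0.18 (95% interval -0.29 to 0.64, adjusted p = 0.548) and 0.31 (95% interval -0.08 to 0.70, adjusted p = 0.208). *Pcbp4* lay below WT in every KO library, at -0.47 (95% interval -0.87 to -0.07, adjusted p = 0.0849), and was not called. *Hnrnpl* (ENSMUSG00000015165, chr7:28808541-28822266, plus strand, GRCm38) encodes hnRNP L, a splicing regulator that binds CA repeats. It had 211, 239 and 198 CPM in KO and 160, 169 and 201 CPM in WT. Only WT3 reached into the KO range, and the log2 fold change was 0.29 (95% interval -0.04 to 0.63, adjusted p = 0.177). *Hnrnpll*, its relative known for splicing in T cells, had a log2 fold change of -0.11 (95% interval -0.41 to 0.18, adjusted p = 0.547), which turned to 0.01 with library totals.

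Levels can be set between genes in TPM. In WT the order was *Hnrnpk* (143 ± 19.1 TPM, SD, n = 3), *Hnrnpc* (87.5 ± 14.6), *Hnrnpf* (86.0 ± 8.97), *Hnrnph1* (64.5 ± 9.20), *Hnrnpl* (56.6 ± 5.94), *Hnrnph2* (38.6 ± 1.24), *Hnrnpr* (26.7 ± 4.87), *Hnrnpu* (25.1 ± 13.7), *Hnrnpm* (22.1 ± 5.34) and *Hnrnpul2* (6.06 ± 0.575). Neighbours whose WT libraries overlapped were *Hnrnpc* with *Hnrnpf*, *Hnrnph1* with *Hnrnpl*, *Hnrnpr* with *Hnrnpu* and *Hnrnpu* with *Hnrnpm*. The mean TPM of *Hnrnpk* in WT was 23.6 times that of *Hnrnpul2*, which itself lay at the 75.1 percentile of expressed genes. In KO, *Hnrnph1* took rank 2 with 94.4 ± 26.1 TPM, *Hnrnpc* rank 4 with 68.2 ± 5.68 and *Hnrnpm* rank 7 with 42.7 ± 13.2. These ranks were not resolved, since the KO libraries of *Hnrnph1* overlapped those of *Hnrnpf*, *Hnrnpc* those of *Hnrnpl*, and *Hnrnpm* those of *Hnrnpr*. The summed TPM of the 10 genes was 524, 633 and 759 for KO and 539, 616 and 514 for WT, and the groups overlapped. Within that sum the share of *Hnrnpc* was 10.8% ± 1.08 in KO and 15.7% ± 2.44 in WT, and that of *Hnrnpm* 6.58% ± 0.850 in KO and 3.96% ± 0.817 in WT (SD, n = 3 each). The share of *Hnrnpk* was 23.7% ± 0.115 in KO and 25.7% ± 1.19 in WT. The shares are not independent of each other, since they add up to the whole, and were not tested.

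**Figure D3:**
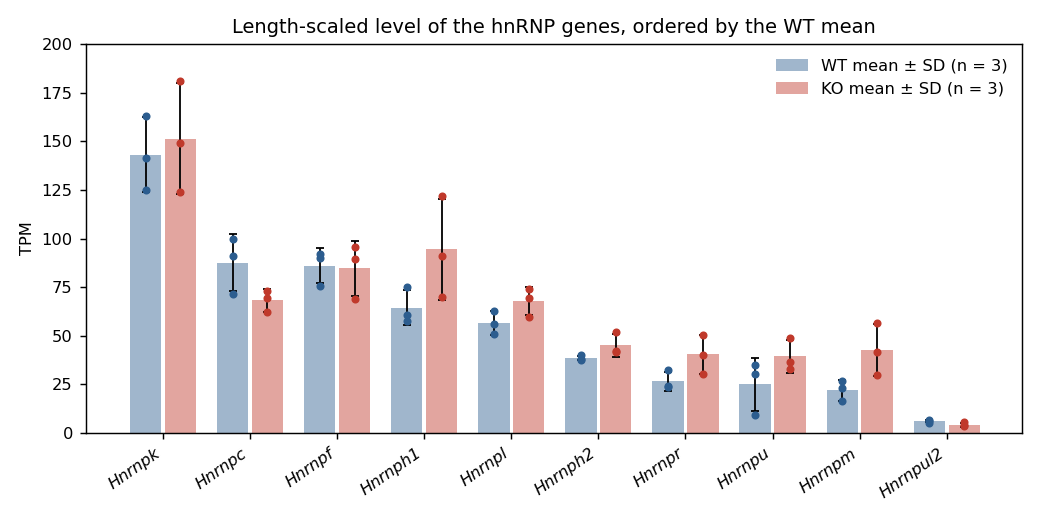
TPM of the 10 genes, ordered by the mean of the WT libraries, as bars for the mean with the SD (n = 3) and points for single libraries, WT in blue and KO in red. *Hnrnpk* is highest in both genotypes with means of 143 and 151 TPM, *Hnrnpul2* lowest with 6.06 and 4.31, and 1 WT library of *Hnrnpu* stands at 9.43.

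The libraries of a genotype were not alike across the members. WT1 held the lowest CPM of the 6 libraries for 5 members, *Hnrnph1*, *Hnrnpl*, *Hnrnpm*, *Hnrnpr* and *Hnrnpu*, and the highest for 2, *Hnrnpc* and *Hnrnpul2*. KO3 held the highest CPM for 5 members, *Hnrnph1*, *Hnrnph2*, *Hnrnpm*, *Hnrnpr* and *Hnrnpu*. Relative to the WT mean on the log2 scale, *Hnrnpu* stood at 0.50 in KO1, 0.53 in KO2 and 1.18 in KO3, while WT1 stood at -0.36. *Hnrnpm* stood at 0.60, 0.95 and 1.16 in the KO libraries and -0.38 in WT1. Without KO1, 4 members were called in counts (*Hnrnpm*, *Hnrnpr*, *Hnrnpu* and *Hnrnpul2*). Without KO2 or without WT2 only *Hnrnpm* was called, without KO3 only *Hnrnpul2*, and without WT1 or without WT3 no member. The number of calls over all genes also moved, from 3361 with all libraries to 933 without WT1, 1288 without WT3 and 4712 without KO1. KO1 was also the KO library with the highest summed CPM of the myogenic markers and the lowest of the cell cycle genes, and the part of either in the values of the members was not tested.

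**Figure D4:**
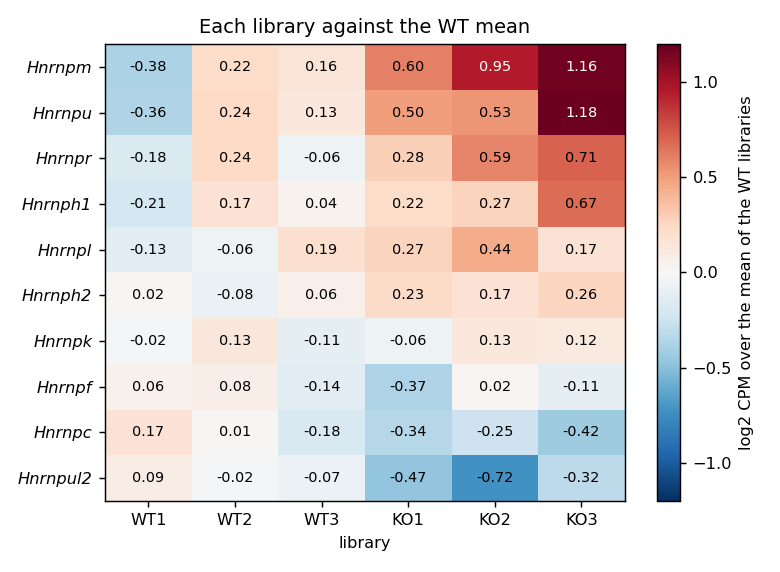
Log2 CPM of each gene in each library over the mean of the 3 WT libraries, from blue (lower) to red (higher), with the value in each cell. KO3 holds the largest positive values (1.18 for *Hnrnpu* and 1.16 for *Hnrnpm*), KO2 the most negative (-0.72 for *Hnrnpul2*), and WT1 lies below the WT mean for *Hnrnpm* (-0.38) and *Hnrnpu* (-0.36).

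Ratios of counts within a library are free of library size, and are given as a description with no test. Where one gene lay above and the other below WT without overlap, the ratio had to separate the genotypes. The ratio of *Hnrnpu* to *Hnrnpul2* was 1.52, 1.85 and 2.19 in KO and 0.569, 0.927 and 0.890 in WT. That of *Hnrnpm* to *Hnrnpc* was 0.433, 0.517 and 0.673 in KO and 0.154, 0.260 and 0.285 in WT. Between closer relatives, the ratio of *Hnrnph1* to *Hnrnpf* was 1.47 to 2.13 in KO and 1.03 to 1.40 in WT, and that of *Hnrnpm* to *Myef2* 2.08 to 2.52 in KO and 1.59 to 2.03 in WT, both without overlap. The ratios of *Hnrnph1* to *Hnrnph2*, *Hnrnpl* to *Hnrnpll*, *Hnrnpc* to *Raly* and *Hnrnpr* to *Syncrip* overlapped.

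Across the rest of the family, 3 of 7 genes of the A/B and D subfamilies were called higher in KO and 0 lower, beside 12.1% and 10.6% of all genes tested. Their median log2 fold change was 0.29, with 4 above 0 and 3 below. Every KO library lay below every WT library for *Hnrnpdl* (-0.36, adjusted p = 0.111) and *Hnrnpab* (-0.19, adjusted p = 0.298 with edgeR). With the regional shift removed, *Hnrnpdl* was called lower (-0.65, adjusted p = 0.0208 with edgeR). *Hnrnpd*, which encodes the AU-rich element binding protein AUF1, had 38.1, 36.9 and 49.2 CPM in KO and 18.0, 24.1 and 22.1 CPM in WT, a log2 fold change of 0.95 (adjusted p = 0.00971). *Hnrnpa1*, which encodes the splicing repressor hnRNP A1, stood at 0.81 (adjusted p = 0.0268), and *Hnrnpa3*, its relative, at 0.58 (adjusted p = 0.0483 with edgeR). None of the 3 passed the threshold in TPM, where the log2 difference was 0.32 for *Hnrnpd* and 0.16 for *Hnrnpa3*, both with overlapping groups, and 0.77 for *Hnrnpa1* (adjusted p = 0.0502 with limma). Of 15 other relatives, 3 were higher and 1, *Grsf1*, was lower in KO, which is 26.7% called, near the background of 22.7%. Their median log2 fold change was 0.27. The 3 genes of polypyrimidine tract binding proteins, a family known for repressing neuronal and muscle exons, were all called higher. The log2 fold change was 0.69 for *Ptbp1* (adjusted p = 0.0432), 0.55 for *Ptbp2* (adjusted p = 0.0257) and 0.59 for *Ptbp3* (adjusted p = 0.0259 with edgeR). In TPM none of them passed (adjusted p = 0.0747, 0.0905 and 0.281 with limma), nor did *Grsf1* (adjusted p = 0.0794). Each of the *Ptbp* calls was lost without KO3, WT1 or WT3, among others, where the adjusted p reached 0.164 for *Ptbp1*, 0.121 for *Ptbp2* and 0.118 for *Ptbp3* (edgeR). Removing the regional shift also ended the calls of *Ptbp1* (adjusted p = 0.0533) and *Ptbp2* (adjusted p = 0.0501 with edgeR). *Hnrnpd* was lost without WT1 (0.83, adjusted p = 0.0515), *Hnrnpa1* without any library but KO1 (adjusted p 0.063 to 0.107) and *Hnrnpa3* without KO3 or any WT library (adjusted p 0.0548 to 0.177 with edgeR) and with relative log expression size factors (0.57, adjusted p = 0.0532). The lists were described and not tested against other genes.

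**Figure D5:**
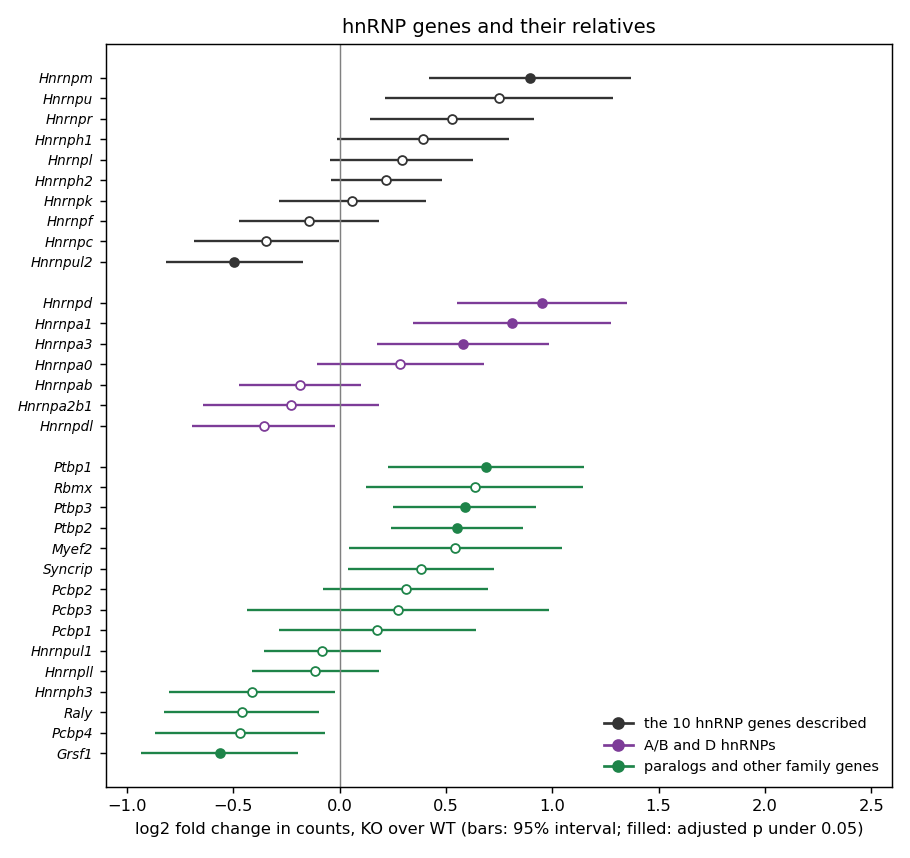
Log2 fold change of KO over WT in counts with the 95% interval, for the 10 genes described (black), the A/B and D hnRNP genes (purple) and 15 other relatives (green), where filled points mark an adjusted p under 0.05 with edgeR. *Hnrnpd* has the highest value, 0.95, and the called genes below 0 are *Hnrnpul2* (-0.50) and *Grsf1* (-0.56).

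The gene models bear on how cleanly each member could be counted. *Hnrnpm* shares 14.7% of its exonic bases with *March2*, a gene on the same strand, and 12.4% of the 100-base words of its transcripts. *March2* had 27.1 to 44.5 CPM in KO, 29.2 to 41.1 CPM in WT and a log2 fold change of 0.06 (adjusted p = 0.854). *Hnrnpu* shares 6.9% with *Cox20* on the other strand, which was at or below 0.0916 CPM in every library. *Hnrnpf* shares 26.5% with 2 gene models of unsettled status on the other strand, and 49.4% of the 100-base words of its transcripts also occur in 10 other genes, processed pseudogenes such as *Gm6430* among them. For *Hnrnpk* 11.9% of the words occur elsewhere, and its processed pseudogene *Gm7964* carried 13.3 to 18.5 CPM. *Hnrnph2* shares 7.6% of its words with 1 pseudogene, and *Hnrnpc*, *Hnrnph1*, *Hnrnpl*, *Hnrnpr* and *Hnrnpul2* 3.7% or less. *Hnrnph1* and *Hnrnph2* share no 100-base word with each other. The deposited positions of *Hnrnpu*, *Hnrnpul2* and *Hnrnpc* differ from the GENCODE ones given here, that of *Hnrnpu* running from 178324343 to 178337797, so its shared exonic bases are those of the GENCODE model. How reads in shared stretches were counted is not given in the sources used here, and the counts of *Hnrnpf*, *Hnrnpm* and *Hnrnpk* are uncertain to that extent. Their annotation also differs in the number of transcripts that are not protein coding. *Hnrnpk* has 13 transcripts with a retained intron and 3 marked for nonsense-mediated decay among 34, *Hnrnpl* 7 and 1 among 13, and *Hnrnpu* 3 and 3 among 9. *Hnrnph1* has 15 processed transcripts and 3 coding ones among 18, and *Hnrnpm* 4 with a retained intron and 3 processed among 15. A count per gene adds these forms to the coding ones, and splicing was not analysed here.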

How the data were processed

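RNA of 3 KO and 3 WT libraries of differentiating C2C12 cells was sequenced in pairs. After alignment with STAR, the authors deposited raw gene counts, not normalized, and TPM values per library from StringTie. FastQC, Trim Galore, featureCounts and Salmon are further names in the submitters' processing notes. The paper names GRCm39 and those notes mm9, whereas the deposited gene positions fit GENCODE M21 on GRCm38 (83.2% of genes with the same start and end), which was used for coordinates. Use of strand in counting is not given in the sources used here. There were 0 unused columns.

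Counts were filtered with filterByExpr, scaled with TMM (factors 0.949 to 1.08) and tested two-sided with edgeR 4.0.16 (R 4.3.3) on genotype alone. Intervals and standard errors come from the F statistic. TPM were tested with limma 3.58.1 on log2(TPM + 1), which understates changes of low genes, for genes at 1 TPM or more in 3 libraries. Benjamini-Hochberg adjustment ran over all genes tested. Single values had exact permutation tests. The edgeR step was tried on simulated counts with the same spread setting for every gene. The limma step was tried on log2(CPM + 1) of such counts and not on TPM. p-values measure the spread between these libraries, whose clones are not stated.

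Alternatives were DESeq2 1.42.0, other scalings, no filter, a pseudocount of 0.1, a regional offset, a block and leaving out each library. The regional offset was the median of fixed 10 Mb bins with at least 15 genes. Named genes were the 10 members, *Hnrnpa2b1*, the closest relatives (*Raly*, *Hnrnph3*, *Grsf1*, *Pcbp1*, *Pcbp2*, *Hnrnpll*, *Myef2*, *Syncrip*, *Hnrnpul1*) and every gene of the family lists past the threshold in counts. 1 further relative is not reported here. Overlapping genes and pseudogenes named for shared sequence, and *Krt14* and *Rrm2* as the highest of their lists, were chosen after their values were seen. So were *Pcbp4*, *Hnrnpdl*, *Hnrnpab* and, in the alternatives, *Rbmx*. The members and lists were chosen with earlier results of these data known. Figures were drawn with matplotlib 3.10.9. Protein sequences were not used here.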

Additional observations from a re-analysis of the deposited data

How the results depend on the processing

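Directions held for every member under every alternative to the count fit except *Hnrnpk* (-0.011 with the regional offset and -0.023 to 0.118 with 1 library left out, negative without WT3). In TPM, *Hnrnpf* turned to 0.111 without KO1, 0.006 without WT1 and 0.023 without WT2, and *Hnrnpk* to -0.044 with TMM factors and -0.066 without KO3 and -0.023 without WT3, within -0.066 to 0.206. Among relatives, *Hnrnpab* turned to 0.041 with the regional offset, and *Hnrnpll* and *Hnrnpul1* to 0.007 and 0.035 with library totals. All of these were far from the threshold, and the cause was not tested. The number of members called in counts was 2 in the reported fit and 2 to 4 over the alternatives that kept all libraries: 4 with DESeq2 on genes with at least 10 counts and 4 without a filter. Leaving out 1 library gave 0 to 4 members, 933 to 4712 of all genes, 0 to 4 of the A/B and D list and 0 to 5 of the other relatives, against 2, 3361, 3 and 4. In the latter list 2 were called with the regional offset. The replicate numbers did not pair the libraries: the deviations of same-numbered libraries correlated at 0.172, -0.121 and -0.074, and 2 of 6 libraries correlated best with their own number. With the number as a replicate block, 2520 genes, 2 members (*Hnrnpm* and *Hnrnpu*) and 2 other relatives were called. The block ended the calls of *Hnrnpul2* (-0.50, adjusted p = 0.071), *Grsf1* (adjusted p = 0.0699), *Hnrnpa3* (adjusted p = 0.0914), *Ptbp1* (adjusted p = 0.0533) and *Ptbp3* (adjusted p = 0.057) and made those of *Hnrnpu* (0.74, adjusted p = 0.0451) and *Rbmx* (0.65, adjusted p = 0.0366 with edgeR). In TPM, 0 members were called with a pseudocount of 0.1 and 0 without a filter on TPM, where 1056 of all genes were past the threshold against 2366. Leaving out 1 library gave 0 to 3 members and 482 to 3134 genes in TPM. With TMM factors on TPM the median of all genes moved from -0.02 to -0.12 and the share of calls higher in KO from 41.8% to 28.3%. The log2 difference of the summed TPM was 0.187, and 0.054 to 0.322 with 1 library left out. Depth did not limit the members, whose intervals were set by 3 libraries a genotype.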
